A study of Mus musculus with 45 samples.

Results

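AY036118 and Lars2, a pair of genes set side by side in earlier results of these data, are described here in 45 RNA-seq libraries of mouse small intestinal tuft cells. AY036118 is annotated as a long intergenic non-coding RNA, and Lars2 encodes the mitochondrial leucyl-tRNA synthetase. The members are these 2 genes out of 47729 in the tables, taken by symbol. They had been chosen by their share of reads and by a difference of Lars2 between diets at 9 weeks, so shares are given as a description and the 9 week difference of Lars2 is given without a test.

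Tuft cells are rare chemosensory cells of the gut epithelium that release IL-25 and thereby start type 2 immune responses. Ribosomal RNA (rRNA) makes up most of the RNA of any cell. The cytosolic ribosome is built on rRNA from the nucleus, of which the 18S species belongs to the small subunit, and the mitochondrial ribosome is built on mt-Rnr1 and mt-Rnr2, which the mitochondrial genome encodes. Aminoacyl-tRNA synthetases join an amino acid to its tRNA, and LARS2 does so for leucine inside mitochondria, where the subunits of the respiratory chain encoded there are translated.

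The cells were sorted from the small intestine of male C57BL/6J mice kept at thermoneutrality as Siglec-F+ EpCAM+ cells, 1 library per mouse. Mice ate a high fat diet (HFD, 60% of energy as fat) or a reference diet (RFD, 10%). A first set of libraries (STF) comes from mice fed for 9 weeks, 11 on RFD and 11 on HFD, and a second set (LTF) from mice fed for 22 weeks, 11 on RFD and 12 on HFD. In the labels both sets are given 9 weeks, and the 22 weeks is from the study's methods. Feeding time and set cannot be told apart.

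Total reads on genes were 189340 to 4193097 in the 9 week RFD group, 409023 to 3600000 in the 9 week HFD group, 829184 to 3476758 in the 22 week RFD group and 661598 to 4690213 in the 22 week HFD group. 2 libraries of the 9 week set, 1 on each diet, had under 500000. All 15 tuft cell markers, among them Dclk1, Trpm5 and Pou2f3, were measured. Their summed level was 2816 to 23800 CPM (reads scaled to the size of the library) at 9 weeks on RFD and 193 to 23592 on HFD, and 4904 to 24804 and 953 to 24022 at 22 weeks. Paneth cell markers were present in the same libraries, with a median sum of 1857 CPM on RFD and 22203 on HFD at 9 weeks, and 964 and 9595 at 22 weeks. In bulk samples, fewer cells of a type and less RNA per cell cannot be told apart.

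AY036118 lies inside a gene annotated as rRNA. In GENCODE M21 on GRCm38 it is a single exon of 923 bases on the minus strand at chr17:39847113-39848035. The whole of it falls in the exon of CT010467.1, annotated as rRNA on the same strand at chr17:39846353-39848201, and its sequence is identical to bases 167 to 1089 of the 1849 bases of that transcript. On the plus strand all 923 bases are also covered by Gm42418. RefSeq names nearly the same interval, chr17:39846354-39848202, Rn18s-rs5, an 18S rRNA related pseudogene with Gm42418 among its synonyms. RefSeq places its own AY036118 elsewhere, at chr17:39848112-39898385. The stretches printed here show the bases that the 3 genes share. Capitals mark the first 60 bases of AY036118 and the same bases in the other transcripts, and lower case marks 30 bases of flank outside AY036118. The third line is the reverse complement of the second.
AY036118, chr17:39847976-39848035, minus strand: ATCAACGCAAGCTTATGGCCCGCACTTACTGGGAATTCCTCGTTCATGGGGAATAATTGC
CT010467.1, chr17:39847976-39848065, minus strand: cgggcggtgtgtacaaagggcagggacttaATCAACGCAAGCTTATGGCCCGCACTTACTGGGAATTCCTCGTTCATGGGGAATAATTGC
Gm42418, chr17:39847976-39848065, plus strand: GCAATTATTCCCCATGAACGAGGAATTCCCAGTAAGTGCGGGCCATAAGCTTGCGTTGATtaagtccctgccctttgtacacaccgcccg

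The 3 genes also stood out in the form of their counts. RSEM, which estimated the deposited counts, divides a read that fits several transcripts. The count of AY036118 was not a whole number (tolerance 0.004) in 44 of 45 libraries, that of CT010467.1 in 45 and that of Gm42418 in 44. For Lars2, Gm26917, mt-Rnr1 and mt-Rnr2 this held in 0 of 45. AY036118 took 48.7% to 62.9% of the reads given to AY036118 and CT010467.1 together. The value of AY036118 depends on that division, so the sum of both genes is given beside its test.

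**Figure D1:**
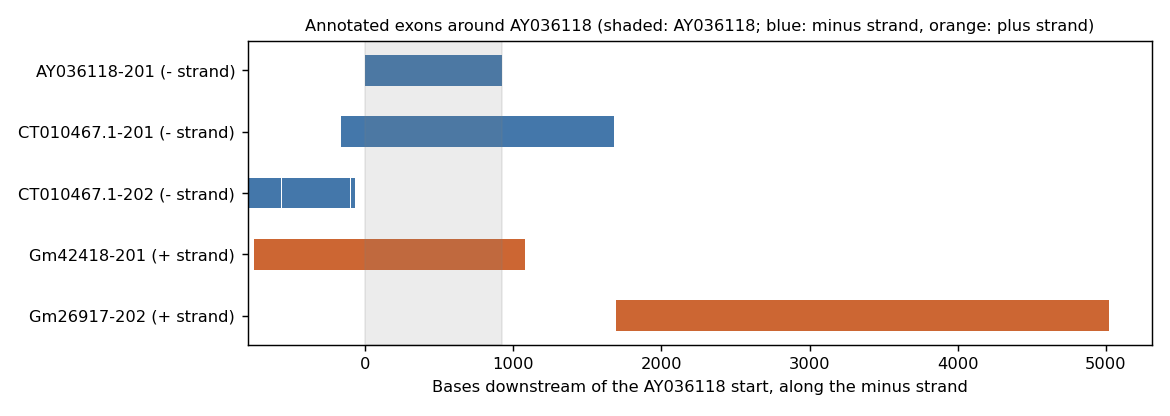
Annotated exons around AY036118 by distance in bases from its start, with minus strand transcripts in blue, plus strand transcripts in orange and the 923 bases of AY036118 shaded. AY036118 lies wholly inside CT010467.1 and wholly under Gm42418, while Gm26917 starts beyond them.

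No match of Lars2 to an annotated rRNA gene was found. Its gene is at chr9:123366927-123462666 on the plus strand, and Lars2 has 21 exons and 3894 bases, of which 2706 are coding and 989 are 3′ untranslated. A search of its transcript against 357 transcripts of 356 annotated rRNA genes (blastn, e-value limit 0.001) found 0 genes, whereas the same search with AY036118 found CT010467.1 alone. The longest exact run that Lars2 shared was 13 bases with CT010467.1, 12 with mt-Rnr2 and 14 with mt-Rnr1. Over all annotated transcripts, matches outside the Lars2 gene were to Gm15564 (98.6% identity over 72 bases) and AA474408 (80.1% over 196 bases). Gm15564 is annotated as antisense RNA, stands in the nuclear rRNA list used here, and had reads in 6 of 45 libraries. The 28S, 5.8S and 45S rRNA were not searched here.

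AY036118 was given the largest mean share of reads of any gene in the series. All its bases are shared with CT010467.1 and Gm42418, so this share rests on how RSEM divided the reads. It does not show that a separate AY036118 transcript was abundant. AY036118 held a mean of 7.70% of reads per library (SD 3.26, n = 45), ranked first in 35 libraries and was among the first 10 in all 45. The second gene was CT010467.1 with a mean of 6.28% and the third mt-Rnr2 with 3.21%. AY036118 and CT010467.1 together held 4.85% to 28.5% of reads. Gm42418, on the plus strand, was given a mean of 0.0039%, so the reads were divided almost wholly between the minus strand genes.

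Its share was largest on RFD. At 9 weeks the RFD libraries ran from 4.21% to 16.6% with a median of 11.8%, and the HFD libraries from 2.52% to 10.9% with a median of 4.65%. At 22 weeks RFD ran from 3.60% to 10.1% with a median of 8.92%, and HFD from 3.77% to 9.01% with a median of 5.54%. The ranges of the diets overlapped at both times. In descending order of median the groups were 9 week RFD, 22 week RFD, 22 week HFD and 9 week HFD.

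Lars2 was not a dominant transcript. It held a mean of 0.0591% of reads (SD 0.0384, n = 45), which put it at rank 157 by mean share, and its rank in single libraries ran from 45 to 974 with a median of 158. It was among the first 100 genes in 8 libraries. At 9 weeks its share was 0.0206% to 0.176% on RFD with a median of 0.0970%, and 0.00723% to 0.0550% on HFD with a median of 0.0277%. At 22 weeks it was 0.0245% to 0.109% on RFD with a median of 0.0850%, and 0.0112% to 0.0934% on HFD with a median of 0.0636%. The 9 week RFD libraries were the most spread, and the 9 week HFD libraries were the lowest.

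Among its own family Lars2 stood high. In TPM, which corrects for transcript length, its median was 234.6 and 50.4 at 9 weeks on RFD and HFD, and 202.5 and 149.0 at 22 weeks. Across 18 other synthetases that serve mitochondria, the highest group medians were 23.8 TPM for Kars in the 9 week RFD group, 33.6 for Gars in the 9 week HFD group, 31.4 for Kars in the 22 week RFD group and 34.8 for Kars in the 22 week HFD group. Kars and Gars, for lysine and glycine, also serve the cytosol. Lars, the cytosolic leucyl-tRNA synthetase, had medians of 5.68, 11.9, 5.32 and 7.74 TPM in the same order.

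**Figure D2:**
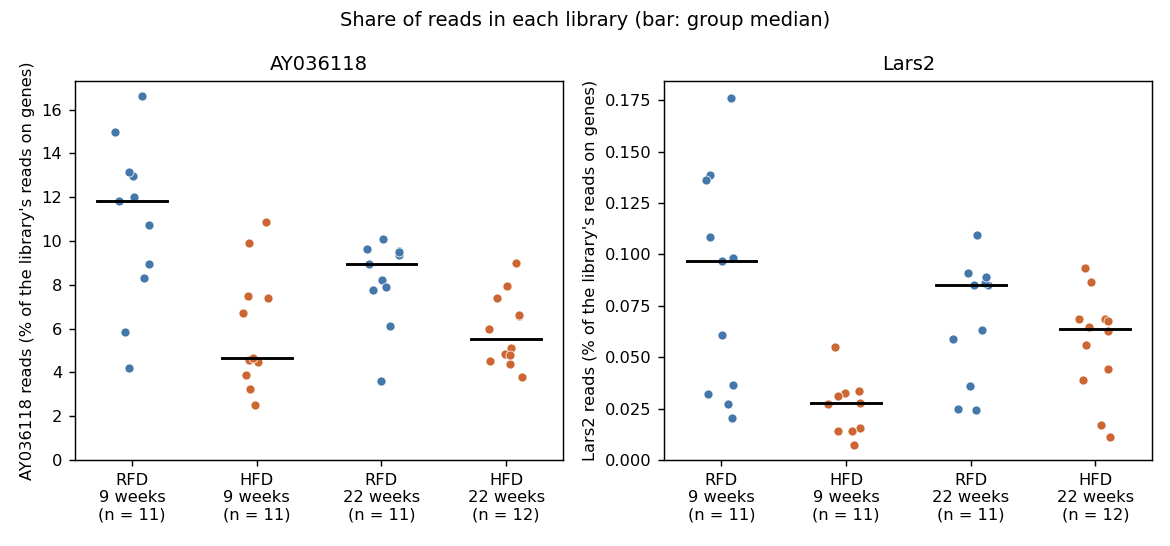
Share of each library's reads on genes, in percent, taken by AY036118 (left) and Lars2 (right), with 1 point per mouse, blue for RFD and orange for HFD, and a bar at the group median. Medians of AY036118 are 11.8%, 4.65%, 8.92% and 5.54% from left to right, and the 2 axes differ in scale.

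The diets were compared at each time over 14020 genes by the quasi-likelihood test of edgeR. A gene was called where its p, adjusted by Benjamini-Hochberg, was under 0.1. At 9 weeks AY036118 was at 46636 to 203230 CPM on RFD (median 124350) and 28147 to 108630 on HFD (median 61988). All 11 HFD libraries were below the RFD median and 4 were below every RFD library. The log2 fold change was -0.97 (SE 0.38, 95% interval -1.76 to -0.18), or 0.511 of the RFD level, and it missed the threshold (edgeR adjusted p = 0.180), in a comparison in which 3.07% of genes were called (431 genes). That call depended on the fit. DESeq2 called the gene (adjusted p = 0.0030), as did edgeR with robust estimation of the spread (adjusted p = 0.0754), a setting tried after the values had been seen. It was also called without HFD mouse 64 (edgeR adjusted p = 0.0832) or without RFD mouse 20 (0.0905). These fits called more genes in total: 1534 of 14020 with DESeq2, 466 with robust estimation, 2004 without HFD mouse 64 and 1708 without RFD mouse 20. With the reads of CT010467.1 added the difference was -0.88 (SE 0.42, adjusted p = 0.266).

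At 22 weeks AY036118 was at 28963 to 117270 CPM on RFD (median 77414) and 37249 to 85760 on HFD (median 49464). 10 of 12 HFD libraries were below the RFD median and 0 were below every RFD library. The log2 fold change was -0.57 (SE 0.20, 95% interval -0.99 to -0.16) and missed the threshold (edgeR adjusted p = 0.283), where 0.728% of genes (102) were called. DESeq2 placed it past the threshold (adjusted p = 0.0877), and so did edgeR without RFD mouse 1 (adjusted p = 0.0728), the RFD library with the lowest share. These 2 fits also called more genes in total, 351 and 649 of 14020.

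Lars2 at 9 weeks was at 303 to 1848 CPM on RFD (median 1022) and 134 to 579 on HFD (median 257). All 11 HFD libraries were below the RFD median, 7 of them below every RFD library, and 7 of 11 RFD libraries were above every HFD library. The log2 difference was -1.82 (SE 0.34), or 0.283 of the RFD level, and it is given as a description because Lars2 was chosen by it. Within the 3 series of mouse numbers in the labels it was -2.17, -1.04 and -1.82 (7 libraries each).

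At 22 weeks Lars2 was at 197 to 1073 CPM on RFD (median 694) and 126 to 881 on HFD (median 563). 9 of 12 HFD libraries were below the RFD median, and the groups overlapped over most of their range. The log2 fold change was -0.38 (SE 0.29, 95% interval -0.98 to 0.22) and missed the threshold (edgeR adjusted p = 0.703).

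Markers of tuft and other cells are set beside both genes here. At 9 weeks 14 of 15 tuft markers had a fold change below 0, with a median of -0.96 against -0.05 over all genes tested, and at 22 weeks 13 of 15, with a median of -0.37 against -0.03. Of the 15, 0 passed edgeR's threshold at either time, where 3.07% and 0.728% of all genes did. Lists as short as those given here can hold 0 calls at that share. All 5 Paneth markers had values above 0, with medians of 2.23 and 1.43, and 0 were called. Among 3 stem cell markers, all above 0 at both times, Olfm4 rose on HFD at 9 weeks (2.05, SE 0.56, edgeR adjusted p = 0.0766). Of 5 enteroendocrine markers, Cck and Gcg, which encode gut hormones, fell on HFD at 22 weeks, with log2 fold changes of -7.73 (SE 1.13, edgeR adjusted p = 0.00050) and -6.20 (SE 1.26, adjusted p = 0.0185). Both were near the floor on HFD, with medians of 0 TPM (highest 5.75 and 3.05). On RFD their medians were 88.2 TPM (0 to 486) and 3 TPM (0 to 154). At 9 weeks 3 of the 5 enteroendocrine markers were above 0 and 0 were called. The 4 T cell markers tested were below 0 at both times (medians -1.31 and -1.47, SE 0.83 to 1.19, 0 called). They were near the floor, with group medians of 0 to 0.92 TPM except Gzma on RFD at 9 weeks (11.0). Of 8 enterocyte markers 2 were above 0 at 9 weeks and 4 at 22 weeks, of 5 goblet cell markers 4 and 5, and 0 of either list were called. With the contrast of tuft to other cell markers as a covariate, the 9 week differences were -0.73 (SE 0.31) for AY036118 and -1.46 (SE 0.31) for Lars2, and the 22 week differences were -0.48 (SE 0.17) and -0.19 (SE 0.20).

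The genes at the locus of AY036118 and the mitochondrial rRNA genes had values below 0 at 9 weeks, and none passed the test. CT010467.1, annotated as rRNA, was at -0.77 (SE 0.36). Gm42418 and Gm26917, both annotated as long intergenic non-coding RNA on the plus strand, were at -0.65 (SE 0.31) and -0.60 (SE 0.28). The mitochondrial mt-Rnr1 and mt-Rnr2 were at -0.50 (SE 0.33) and -0.55 (SE 0.44). At 22 weeks the same genes were at -0.41, -0.05, 0.14, -0.41 and 0.07. Of these 5, 0 were called at either time, where 3.07% and 0.728% of all genes were. Scaling to total reads alone moved the median of all genes at 9 weeks from -0.05 to 0.08, and among these values it turned the sign of Gm42418 at 22 weeks (0.06), while RLE factors and leaving these genes and AY036118 out of the library size turned none.

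Most relatives of Lars2 had values of the opposite sign, and none passed the test. Of 18 mitochondrial synthetases 17 had values above 0 at 9 weeks, with a median log2 fold change of 0.55, and 14 at 22 weeks, with a median of 0.39. The medians of all genes tested were -0.05 and -0.03. Of the 18, 0 were called at either time, where 3.07% and 0.728% of all genes were, so lists this short can hold 0 calls at the common share. Sars2, for serine, had the largest at 9 weeks (1.34, SE 0.47), and Yars2, for tyrosine, was the one below 0 (-0.55, SE 0.79). Both were low, with 9 week medians on RFD and HFD of 3.17 and 6.48 TPM for Sars2 and 1.69 and 0.71 for Yars2. Others of the list were near the floor too, such as Mars2, Aars2 and Wars2 (9 week RFD medians 1.2, 1.47 and 1.76 TPM, against 23.8 for Kars, the highest). With the 3 other scalings 17 of the 18 were above 0 at 9 weeks, and 13 or 14 at 22 weeks. The glutaminyl route, in which Qrsl1, Gatb and Gatc make glutaminyl-tRNA, was at -0.28, 0.21 and -0.27 at 9 weeks. The cytosolic Lars was at 0.75 (SE 0.33) at 9 weeks and 0.22 (SE 0.31) at 22 weeks. Of the 13 protein genes of mitochondrial DNA, 1 was above 0 at 9 weeks (median -0.30) and 11 at 22 weeks (median 0.33), and 0 were called.

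**Figure D3:**
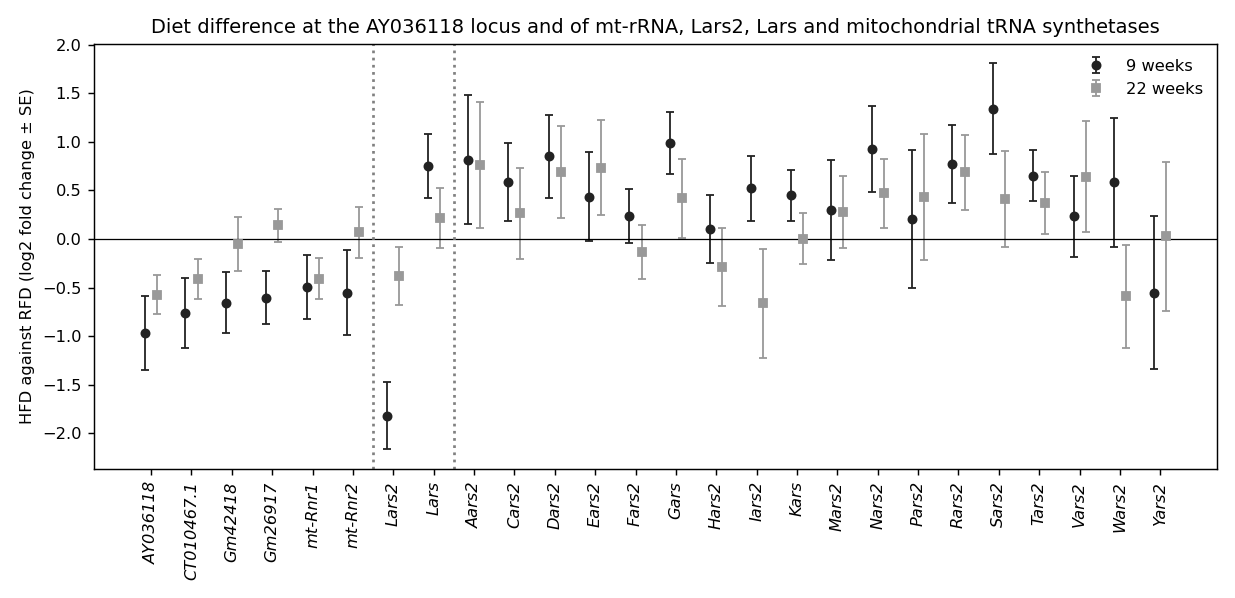
Log2 fold change of HFD against RFD with its SE for AY036118, 3 genes at its locus and 2 mitochondrial rRNA genes (left), Lars2 and Lars (middle) and 18 mitochondrial synthetases (right), at 9 weeks (black circles) and 22 weeks (grey squares). Lars2 at 9 weeks lies at -1.82, while 17 of the 18 synthetases lie above 0.

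Whether the diet difference itself differed between the sets was tested in 1 fit over 45 libraries. For AY036118 the difference at 22 weeks was 0.46 higher on the log2 scale than at 9 weeks (SE 0.36, edgeR adjusted p = 1.00). In that comparison 0.00713% of genes, the single gene Nts (neurotensin, a gut peptide, named after its value was seen), passed. For Lars2 the difference at 22 weeks was 1.495 higher than at 9 weeks (SE 0.46). That value contains the 9 week difference by which Lars2 was chosen, so no test of it is given.

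Between the sets, AY036118 on RFD was lower at 22 weeks by a log2 fold change of -0.63 (SE 0.26, edgeR adjusted p = 0.325), where 1.55% of genes were called, and on HFD it was at -0.17 (SE 0.25, adjusted p = 0.800), where 5.55% were called. Lars2 on RFD was at -0.53 (SE 0.33, adjusted p = 0.640). On HFD Lars2 was at 0.96 (SE 0.32), with no test given, since the low 9 week HFD level entered the choice of Lars2. With the marker contrast as a covariate that value was 0.37 (SE 0.27), and with the 2 libraries of low total left out it was 0.86. In the same comparison all 15 tuft markers had values above 0 (median 0.80), of which 1 passed the test, Rgs13 (1.16, SE 0.38, edgeR adjusted p = 0.0827). All 8 enterocyte markers were above 0 (median 1.14, 5 called higher). Paneth markers were all below 0 (median -2.24, 0 of 5 called), as were enteroendocrine markers (median -4.35, 3 of 5 called lower). The part of these marker differences in the values of Lars2 and AY036118 was not tested. The marker contrast used as a covariate came from the same libraries.

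AY036118 and Lars2 rose and fell together across libraries, though many other genes followed each of them more closely, as given below. Correlations were computed on log2 CPM (prior count 2) for 18 pairs of measures, with 100000 resamples in a two-sided permutation test and adjustment over the 18. All measures of a library share its preparation, depth and scaling. Over both diets, the 9 week diet difference by which Lars2 was chosen also enters r, and values within diets follow. At 9 weeks (n = 22) Pearson's r was 0.816 (permutation p = 3e-05, adjusted 0.00054) and Spearman's rho 0.829 (permutation p = 2e-05, adjusted 0.00036), and without the 2 libraries farthest from the median of AY036118 r was 0.779. At 22 weeks (n = 23) r was 0.625 (permutation p = 0.00133, adjusted 0.00479) and rho 0.586 (permutation p = 0.00355, adjusted 0.0107), and without 2 libraries r was 0.475.

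The relation was also computed within diets and within the number series of the mice. The labels do not say whether a series was a batch. At 9 weeks r was 0.750 within RFD and 0.579 within HFD (n = 11 each), and 0.897, 0.434 and 0.878 within the 3 number series (n = 7 each). After centring within diets it was 0.653 (permutation p = 0.00107, adjusted 0.00642), and after centring within number series and diet it was 0.301 (n = 21, permutation p = 0.185, adjusted 0.370), so at 9 weeks the relation no longer passed the test. At 22 weeks r was 0.702 within RFD and 0.523 within HFD, 0.785, 0.324 and 0.903 within the number series (n = 8, 6 and 8), and 0.677 after centring within series and diet (n = 22, permutation p = 0.00054, adjusted 0.00972).

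**Figure D4:**
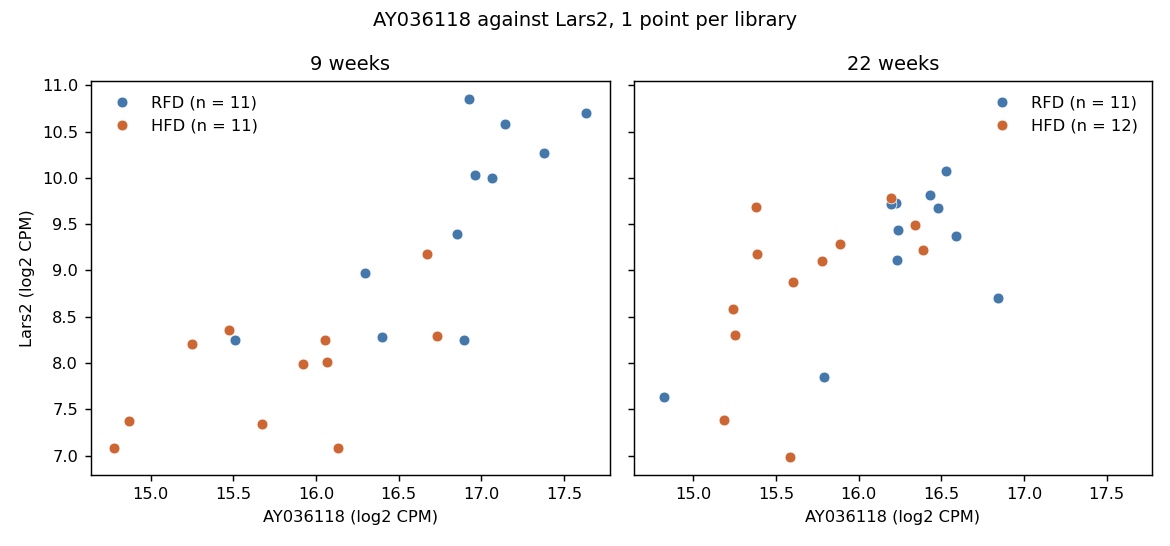
AY036118 (x axis) against Lars2 (y axis), both in log2 CPM, at 9 weeks (left) and 22 weeks (right), with 1 point per library, blue for RFD and orange for HFD. Pearson's r over all points is 0.816 at 9 weeks and 0.625 at 22 weeks, and the 9 week RFD libraries fill the upper right.

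Both genes also followed the mean of the 15 tuft markers. For AY036118 r was 0.674 at 9 weeks (permutation p = 0.00063, adjusted 0.00283; rho 0.759, permutation p = 0.00011) and 0.561 at 22 weeks (permutation p = 0.00325, adjusted 0.00975; rho 0.718, permutation p = 0.00017). For Lars2 it was 0.749 at 9 weeks (permutation p = 8e-05, adjusted 0.00072; rho 0.755, permutation p = 9e-05) and 0.716 at 22 weeks (permutation p = 0.00037, adjusted 0.00222; rho 0.608, permutation p = 0.00243). Without the 2 farthest libraries these 4 values of r were 0.602, 0.454, 0.769 and 0.528. The 9 week diet difference by which Lars2 was chosen also enters its 9 week r here. After centring within diets, r at 9 weeks was 0.694 for Lars2 (permutation p = 0.00028, adjusted 0.00504). For AY036118 it was 0.570 (permutation p = 0.00552, adjusted 0.0199). After centring within number series and diet, the 9 week values fell to 0.170 for AY036118 (permutation p = 0.461) and 0.449 for Lars2 (permutation p = 0.0384, adjusted 0.138), while the 22 week values were 0.525 (permutation p = 0.0124, adjusted 0.0744) and 0.593 (permutation p = 0.00204, adjusted 0.0184).

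No relation with mt-Rnr2, enterocyte markers or total reads passed the adjustment. With mt-Rnr2, r was -0.0208 (rho -0.0672) and 0.222 (rho 0.338) for AY036118 at 9 and 22 weeks, and -0.133 (rho -0.169) and -0.342 (rho -0.0306) for Lars2, with adjusted permutation p of r between 0.241 and 0.937. With enterocyte markers, r was -0.282 (rho -0.211) and 0.0177 (rho -0.0692) for AY036118 and 0.0527 (rho 0.0412) and 0.0480 (rho 0.113) for Lars2, with adjusted permutation p of r between 0.408 and 0.937. Within diets the values differed. For AY036118 with enterocyte markers at 9 weeks r was -0.112 on RFD and -0.870 on HFD (n = 11 each), and -0.543 after centring within diets (permutation p = 0.00901, adjusted 0.0245). Within the number series, over both diets, it was -0.196, -0.461 and 0.319. After centring within number series and diet r was -0.492 (n = 21, permutation p = 0.0232, adjusted 0.104) and rho -0.548 (permutation p = 0.0108, adjusted 0.0650). For Lars2 with mt-Rnr2 at 9 weeks r was -0.628 on RFD and -0.197 on HFD, and -0.487 after centring within diets (permutation p = 0.0205, adjusted 0.0410). Within the number series, over both diets, it was -0.135, 0.477 and 0.509, and after centring within number series and diet -0.0579 (permutation p = 0.804). With total reads, r was 0.193 and 0.161 for AY036118 and 0.367 and -0.0841 for Lars2, with adjusted permutation p between 0.235 and 0.905.

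The genes whose pattern was most like each member were found by Spearman's rho over 45 libraries after centring within the 4 groups. For AY036118 they were CT010467.1 (0.945), Gm26917 (0.856), Cldn3, a claudin of tight junctions (0.784), Gabarap, an autophagy protein (0.778), and Eps8l3 (0.777). CT010467.1 contains every base of AY036118 and RSEM divides their reads, so a high value for that gene was set in advance. For Lars2 they were Myadm (0.821), F11r, a junctional adhesion molecule (0.820), Prr15 (0.812), Lamtor2, a lysosomal scaffold of mTORC1 signalling (0.799), and Zdhhc9, a palmitoyltransferase (0.792). Lars2 was at order 496 for AY036118 and AY036118 at order 431 for Lars2 (rho 0.612), so many other genes were more like each member. mt-Rnr2 was at 6089 for AY036118 (rho -0.0325) and 11180 for Lars2 (rho -0.310).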

How the data were processed

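RNA-seq libraries (Smart-seq2 and Nextera XT, which do not mark strand) were made by the authors from sorted cells. Reads were trimmed with Cutadapt 1.15, aligned with STAR 2.6.0 to GRCm38 and counted with RSEM, as the study's methods and the submitters' notes state. The authors deposited expected counts per gene, which were rounded to whole numbers here, and TPM, used for levels between genes. Of the counts above 0, 8.79% were not whole. 24 libraries in the count tables match no sample and were not used. Of 47729 genes, 47224 had a symbol, 19 were removed for a shared symbol, and 14020 with more than 5 reads in at least 6 libraries were tested. Totals of 189340 to 4690213 reads per library limit the precision.

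Diets were compared within each set with edgeR 4.0.16 (R 4.3.3), TMM factors, the quasi-likelihood test with its default estimation of the spread and Benjamini-Hochberg adjustment, at adjusted p under 0.1 as in the study. Members and lists were chosen with earlier results of these data known. For Lars2, tests planned on the difference between sets in the diet effect and on HFD are given as values with their SE, because both contain values by which the gene was chosen. 5 set-ups of this test were compared by the number of genes called after the members' values had been seen (431, 466, 432, 417 and 414 genes at 9 weeks). The default set-up, which was run first, was kept, although robust estimation, the second of the 5, gave the number of genes in the earlier results and moved AY036118 at 9 weeks past the threshold. Alternatives were DESeq2 1.42.0, limma 3.58.1 on log2(TPM + 1), other size factors, no filter, number series, marker contrast, low totals, single libraries left out and the mouse number as a block. Genes named are the members, the fixed lists and the 5 most alike. The code was tested on simulated data. Transcripts of GENCODE M21 were searched with BLAST.

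Mouse numbers are shared by 16 pairs of libraries of different mice in the sets. Correlations of their deviations were -0.38 to 0.38, with 2 over 0.1, so numbers were not taken to pair libraries. The study's weighting by cell type proportion was not repeated. P-values measure the spread between mice, taken as independent. In the study mice of a group shared cages, and the cages of each group were terminated on different days. The labels name no cage or day, so neither was in the tests.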

Additional observations from a re-analysis of the deposited data

How the results depend on the processing

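AY036118 was lower on HFD at both times in every alternative run, and called in 4 of 33 at 9 weeks and 2 of 34 at 22 weeks. The settings that called it were DESeq2 (log2 fold change -1.02 at 9 weeks, -0.55 at 22 weeks), robust estimation at 9 weeks (-0.97, adjusted p = 0.0754 with edgeR), added after seeing the data, and the libraries named above. Leaving out single libraries gave -1.08 to -0.88 at 9 weeks and -0.64 to -0.49 at 22 weeks. Lars2 at 9 weeks was -1.997 to -1.46 in 33 alternatives. Lars2 at 22 weeks was called in 0 of 34. Between sets on RFD, AY036118 was past the threshold with DESeq2 (-0.70) and the marker covariate (-0.72). On HFD its sign turned with limma on TPM (0.40) and with the mouse number as a replicate block (0.17). The value of Lars2 on HFD (0.96), given without a test, was 0.86 with RLE factors, 0.96 with no filter, 0.88 with number series, 0.37 with the marker covariate, 0.86 with low totals left out and 0.87 with the replicate block. The block changed no call of AY036118. In each case the cause was not tested.

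The count of genes called was less stable. At 9 weeks it was 1534 with DESeq2, 260 with no filter, 9 with limma on TPM, 30 with the marker covariate and 254 without low totals, and 48 (without HFD mouse 6) to 2004 (without HFD mouse 64) with single libraries left out, where 17 of 22 moved it by over 1.5 times. At 22 weeks it was 351 with DESeq2, 51 with limma, 163 with number series and 238 with the covariate, and 63 (without RFD mouse 10) to 649 (without RFD mouse 1), where 4 of 23 did. With no TMM factor, 327 of 382 calls at 9 weeks were higher on HFD, against 257 of 431.

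Among correlations at 9 weeks, centring within number series and diet ended the adjusted call for AY036118 with Lars2 (r = 0.301) and with tuft markers (0.170), and for Lars2 with tuft markers (0.449). Signs turned for AY036118 with mt-Rnr2 (0.291 on TPM, 0.147 within series, 0.0513 without low totals), with enterocyte markers (0.360 on TPM) and with total reads (-0.335 within series), and for Lars2 with mt-Rnr2 (0.238 on TPM, 0.0610 without low totals) and with enterocyte markers (-0.109 within diets). Calls appeared for AY036118 with enterocyte markers (-0.543 within diets) and for Lars2 with mt-Rnr2 (-0.487 within diets), enterocyte markers (0.485 on TPM) and total reads (0.531 within diets). At 22 weeks signs turned for AY036118 with mt-Rnr2 (-0.0416) and enterocyte markers (-0.0510) without TMM and total reads (-0.00053 on TPM), and for Lars2 with total reads (0.157 within series), and Lars2 with mt-Rnr2 was called without TMM (-0.454).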

Other observations

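Gm26917, a long intergenic non-coding RNA next to CT010467.1, and the mitochondrial rRNA gene mt-Rnr1 differed between the sets on both diets. Gm26917 had medians of 2091 and 1404 CPM at 9 weeks on RFD and HFD, and 496 and 528 at 22 weeks. Its log2 fold change between the sets was -2.07 on RFD (SE 0.22, edgeR adjusted p = 1.92e-08) and -1.26 on HFD (SE 0.21, edgeR adjusted p = 0.00027). mt-Rnr1 had medians of 1967, 1826, 842 and 643 CPM in the same order, with log2 fold changes of -1.67 (SE 0.29, edgeR adjusted p = 0.00064) and -1.50 (SE 0.28, edgeR adjusted p = 0.00097). mt-Rnr2 was at -0.85 (SE 0.34, edgeR adjusted p = 0.320) on RFD and -0.14 (SE 0.34, adjusted p = 0.887) on HFD. Feeding time and set cannot be told apart in these values, and what else differed between the sets was not tested.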
